A study of Mus musculus with 12 samples.

Results

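Macrophages take up lipoproteins, debris and surface receptors through clathrin-coated pits, and this account follows 10 mouse genes for proteins that start such pits, load them, shape their membrane or fuse the vesicles they give rise to. The 10 were chosen by name as endocytic adaptor and membrane fusion genes: Necap1, Necap2, Fcho1, Fcho2, Ap1s1, Ap1s2, Ap1s3, Bin1, Bin2 and Snap23. Some of them were listed because earlier results of these data had shown a difference between knockout and wild-type cells, and the others are their paralogues. The table held 9 of the 10, out of 23438 genes in all, and all 9 reached the filter of 1 TPM in at least 5 libraries, as 11152 genes did in all. Bin2 was not analysed here. TPM expresses the transcripts of a gene as a share of those in its library, scaled to a fixed total and divided by gene length, so levels of different genes can be compared.

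The libraries came from primary bone marrow derived macrophages (BMDMs), collected on day 7 of differentiation from the marrow of C57 mice with atherosclerosis. The Baf60a KO group had 5 libraries and the WT group 7, and all 12 had the same differentiation treatment. Baf60a is the protein of Smarcd1, a subunit of the SWI/SNF chromatin remodelling complex. The sources used here do not give how the knockout allele was made, in which cells it was active, the age of the mice, how their atherosclerosis was brought about, or whether each library was a separate mouse. The spread behind the p-values below is therefore that of these 12 libraries and may be technical.

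In clathrin-mediated endocytosis, proteins of the FCHO family gather at the plasma membrane and recruit the AP-2 adaptor complex, which binds cargo and clathrin. NECAP proteins bind AP-2, and BIN proteins carry a curved BAR domain that bends membrane. BIN1 also binds dynamin, the enzyme that cuts the vesicle free. AP-1 is the related adaptor complex of the trans-Golgi network and endosomes, and its small sigma subunit exists in versions encoded by Ap1s1, Ap1s2 and Ap1s3. SNAP23 is a SNARE protein of the plasma membrane, the widely expressed relative of the neuronal SNAP25, and takes part in secretion and phagocytosis.

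Smarcd1 lay between 5.99 and 7.58 TPM in KO libraries, against 11.6 to 15.6 TPM in WT libraries, so the labels and the targeted gene did not conflict. WT replicates 2, 3 and 4 stood apart from the other 9 libraries and touch most results below. The summed level of 8 macrophage markers was 8890 to 9440 TPM in KO libraries, 2400 to 4740 TPM in WT replicates 2, 3 and 4, and 9040 to 11000 TPM in the other 4 WT libraries. The sum of 7 fibroblast and smooth muscle markers was 190.0 to 605 TPM in KO, 3900 to 9780 TPM in WT replicates 2, 3 and 4, and 112 to 425 TPM in the other 4 WT libraries. The sum of 6 neutrophil markers was 977 to 6130 TPM in KO, 78.9 to 108 TPM in WT replicates 2, 3 and 4, and 1150 to 1500 TPM in the other 4 WT libraries. The 5 T and B cell markers summed to at most 6.82 TPM in any library, and none of the 26 marker genes was at 0 in every library. In bulk RNA, fewer cells of a type and less RNA per cell cannot be told apart. The part of these marker differences in the members' levels was not tested.

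The stretches of DNA before the start sites of Necap1, Snap23 and Ap1s3 are shown because these 3 genes were higher in every KO library than in any WT library, and that of Ap1s1 because it is the abundant paralogue of Ap1s3 whose level hardly differed. The sequences are from RefSeq for GRCm38.p6, the assembly that mm10 is built on, written 5′ to 3′ on the strand of the gene and ending before the first annotated base of the gene in GENCODE M21. They were taken by symbol for 7 of the 9 measured members. The stretch of Bin1 was left out of the search, and Necap2 had no entry. Capitals mark matches, on either strand, to 1 of 8 short motifs searched. These were GAGGAA (PU.1, the lineage factor of macrophages), CCAAT (NF-Y), GGGCGG (SP1) and AAGATGGC (YY1). The others were TGANTCA (AP-1, here the Fos and Jun transcription factor), TGACG (CREB), CACGTG (TFEB) and a motif of NRF1. The NRF1 motif has 1 position open to any base. Its matches are the last capitals in the Snap23 stretch and, on the opposite strand, in the Ap1s1 stretch. No capitals belong to more than 1 motif.
Necap1, chr6:122874307-122874473, plus strand: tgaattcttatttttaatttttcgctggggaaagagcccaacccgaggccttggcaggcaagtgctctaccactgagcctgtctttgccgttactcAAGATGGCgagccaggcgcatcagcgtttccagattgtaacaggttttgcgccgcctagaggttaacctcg
Snap23, chr2:120567421-120567670, plus strand: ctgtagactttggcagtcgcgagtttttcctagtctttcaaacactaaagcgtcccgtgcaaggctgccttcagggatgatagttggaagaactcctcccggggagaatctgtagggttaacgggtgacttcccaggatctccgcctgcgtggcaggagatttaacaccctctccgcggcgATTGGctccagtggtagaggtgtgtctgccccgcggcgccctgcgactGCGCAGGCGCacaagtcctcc
Ap1s3, chr1:79671973-79672222, minus strand: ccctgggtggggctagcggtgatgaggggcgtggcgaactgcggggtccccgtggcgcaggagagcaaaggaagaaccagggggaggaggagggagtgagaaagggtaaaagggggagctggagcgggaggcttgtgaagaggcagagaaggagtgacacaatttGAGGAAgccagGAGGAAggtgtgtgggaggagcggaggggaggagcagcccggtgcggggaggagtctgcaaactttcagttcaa
Ap1s1, chr5:137046136-137046358, minus strand: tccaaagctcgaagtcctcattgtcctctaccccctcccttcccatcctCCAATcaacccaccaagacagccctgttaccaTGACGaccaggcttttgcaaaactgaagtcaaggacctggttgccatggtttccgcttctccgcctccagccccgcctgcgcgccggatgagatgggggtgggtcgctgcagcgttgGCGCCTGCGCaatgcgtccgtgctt
The Necap1 stretch of 167 bases held 1 match, to AAGATGGC, which 1.1% of all promoters hold in a window of that length. The Snap23 stretch of 250 bases held CCAAT on the opposite strand, found in 33.8% of promoters, and the NRF1 motif, found in 3.7%. The Ap1s3 stretch of 250 bases held GAGGAA at 2 places, a motif found at least once in 23.3% of promoters. The Ap1s1 stretch of 223 bases held CCAAT (31.4% of promoters), the NRF1 motif (2.9%) and TGACG (15.2%). No motif was present in all 4 stretches or in the 3 of the genes that were higher in KO. A match describes these letters and shows neither binding nor a cause.

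The members spanned a wide range of levels. Ap1s1 was the most abundant, at 436 ± 18.7 TPM in KO (SD, n = 5), above 97% of the tested genes, and Ap1s3 the least, at 5.37 ± 0.597 TPM in KO, above 18.9% of them. Between these lay Bin1, Necap2, Snap23, Necap1, Ap1s2, Fcho2 and Fcho1, in falling order of the KO mean. The ranges of neighbours in this order overlapped in KO for Snap23 with Necap1 and for Ap1s2 with Fcho2, and for no other neighbours. Ap1s1 was also the steadiest member, with 1.13 times its lowest level in the highest of the 12 libraries. That ratio was 6.68 for Ap1s3 and 5.09 for Fcho1, and 1.5 to 1.89 for the other 6.

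**Figure D1:**
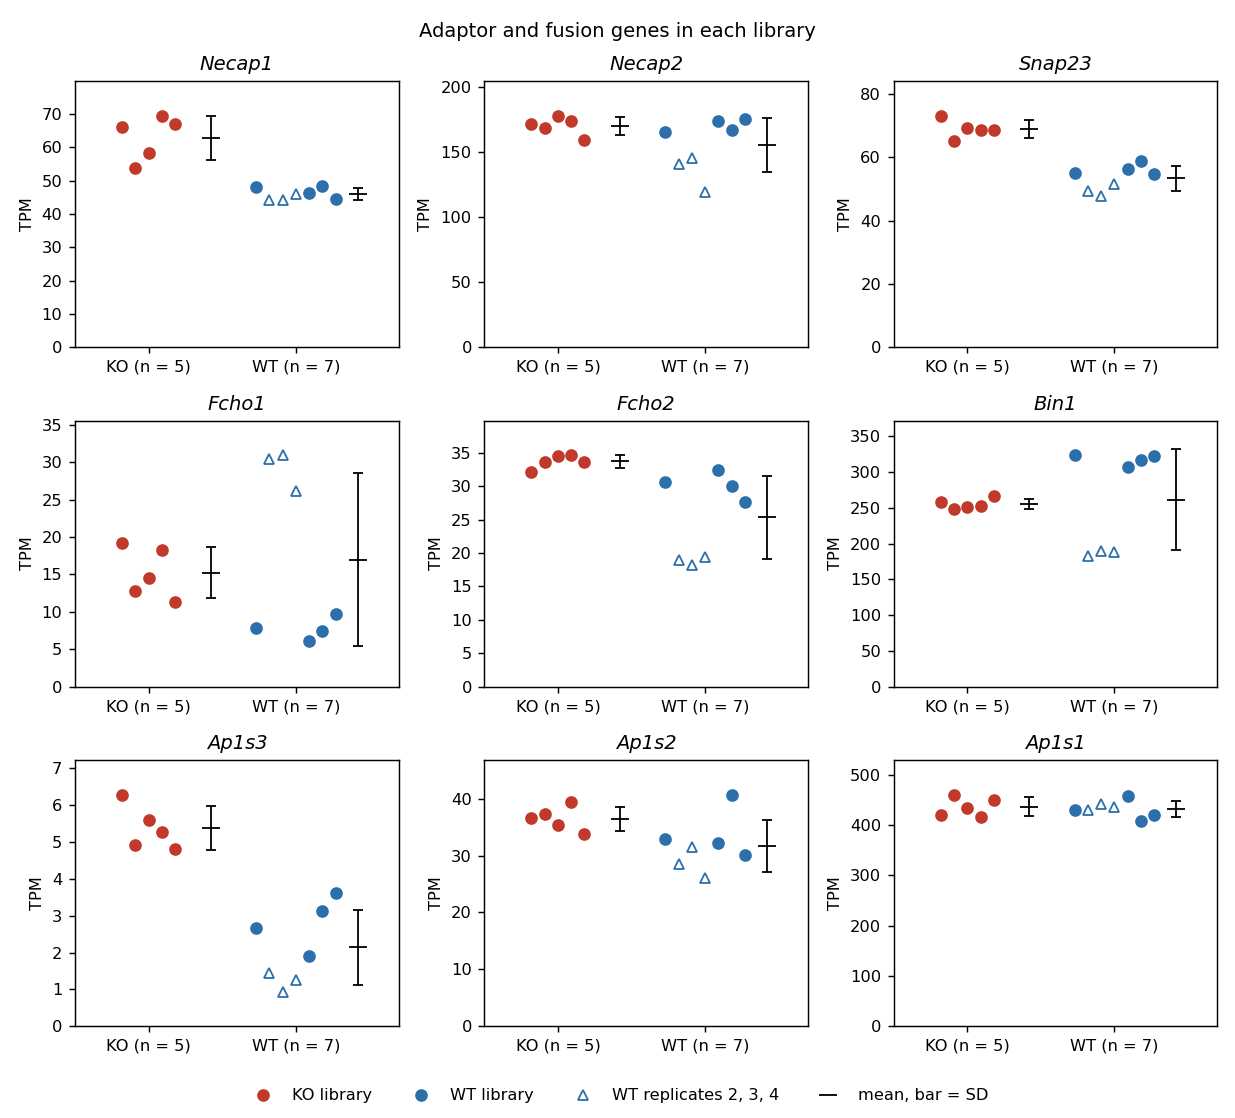
TPM of the 9 measured members in each of the 12 libraries, with KO libraries in red on the left and WT libraries in blue on the right of each panel; open triangles are WT replicates 2, 3 and 4, and the black bars give the mean and SD of each group. Necap1, Snap23 and Ap1s3 were higher in every KO library than in any WT library, while for Fcho1 and Bin1 the KO libraries lay between WT replicates 2, 3 and 4 and the other 4 WT libraries.

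The comparison of KO with WT chose several of these members, so their differences are given as a description, with levels, fold changes and standard errors and without a test. Fold changes are differences of log2(TPM + 1), KO minus WT, from a limma fit over all tested genes, first with 12 libraries and then with the 9 left without WT replicates 2, 3 and 4. In the fit of 12 libraries, 2 of the 9 members, Necap1 and Snap23, had a Benjamini-Hochberg adjusted p under 0.05, against 0.126% of all tested genes (0.108% higher and 0.0179% lower). In the fit of 9 libraries, 5 of the 9 did, with Necap1, Snap23, Fcho1 and Ap1s3 higher and Bin1 lower in KO, against 2.33% of all tested genes (1.61% higher and 0.717% lower). These counts follow from how the members were chosen and support nothing. With the libraries scaled by the median ratio of their genes, the members' count was 0 with 12 libraries and 5 with 9, and calls higher in KO were 85 of 221 genes with 9 libraries, against 180 of 260 without scaling (2 of 4, against 12 of 14, with 12 libraries). Over all tested genes the median log2 fold change was 0.04 with 12 libraries and 0.05 with 9.

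Necap1 (ENSMUSG00000030327, chromosome 6, 122874474 to 122888941 in mm10, plus strand) encodes a protein that binds the AP-2 complex and is best known from nerve endings. Its level was 66.1, 53.7, 58.2, 69.5 and 67.1 TPM in KO replicates 1 to 5. In the 7 WT libraries the lowest was 44.3, the median 46.2 and the highest 48.4 TPM. The groups did not overlap, and the KO libraries were spread more widely than the WT libraries. The group levels were 62.9 ± 6.66 TPM in KO (SD, n = 5) and 46.0 ± 1.77 TPM in WT (SD, n = 7), which differed by 0.44 ± 0.065 on the log2 scale (SE, 12 libraries), or 0.41 ± 0.075 with 9 libraries. WT replicates 2, 3 and 4, at 44.3 to 46.2 TPM, lay within or next to the range of the other 4 WT libraries, 44.4 to 48.4 TPM.

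Necap2 (ENSMUSG00000028923, chromosome 4, 141066512 to 141078357, minus strand), the paralogue with a wide tissue distribution, was the more abundant of the pair in every library. It stood at 172, 169, 178, 174 and 159.8 TPM in KO replicates 1 to 5. Levels of 141, 146 and 119 TPM were found in WT replicates 2, 3 and 4, and of 166 to 176 TPM in the other 4 WT libraries. The KO libraries thus covered the range of the other 4 WT libraries and lay above WT replicates 2, 3 and 4. The log2 fold change was 0.14 ± 0.092 (SE) with 12 libraries and 0.00 ± 0.038 with 9.

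The share of Necap1 in the sum of both genes, which does not depend on how a library is scaled, was 26.9% ± 2.40 in KO (SD, n = 5; range 24.2% to 29.6%). It was 23.9%, 23.3% and 27.9% in WT replicates 2, 3 and 4, and 21.5% ± 1.16 (SD, n = 4; range 20.1% to 22.5%) in the other 4 WT libraries. WT replicate 4 thus lay inside the KO range of this share, with the lowest Necap2 level of all, while the other 6 WT libraries lay below it. The log2 ratio of Necap1 to Necap2 was higher in KO by 0.29 with 12 libraries and by 0.41 with 9.

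**Figure D2:**
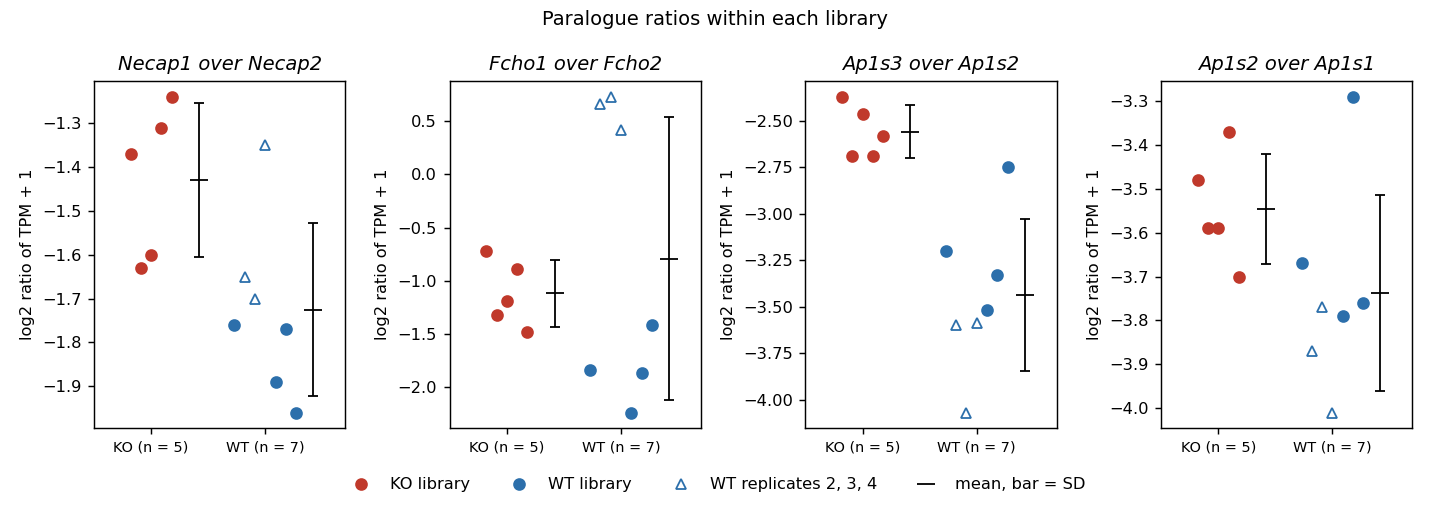
Log2 ratio of the TPM + 1 of paralogues within each library, KO on the left and WT on the right of each panel, with open triangles for WT replicates 2, 3 and 4 and black bars for mean and SD. Ap1s3 over Ap1s2 was between -2.69 and -2.37 in KO and at most -2.75 in WT, while Fcho1 over Fcho2 was positive in WT replicates 2, 3 and 4, at 0.42 to 0.73, and negative in the other 9 libraries.

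Fcho1 (ENSMUSG00000070000, chromosome 8, 71708387 to 71725716, minus strand) encodes an F-BAR protein of early pits that is expressed mainly in blood and immune cells. It was at 19.2, 12.8, 14.6, 18.3 and 11.4 TPM in KO replicates 1 to 5. It was highest in WT replicates 2, 3 and 4, at 30.4, 30.9 and 26.2 TPM, and lowest in the other WT libraries, replicates 1, 5, 6 and 7, at 7.86, 6.08, 7.47 and 9.76 TPM. All KO libraries lay between these sets of WT libraries and overlapped with neither. With 12 libraries the log2 fold change was 0.11 ± 0.421 (SE) and its direction depended on the WT libraries used. It was -0.15 in the 10 libraries numbered 1 to 5 in each group, and 0.88 ± 0.165 with 9 libraries. The means were 15.2 ± 3.39 TPM in KO (SD, n = 5) and 7.79 ± 1.52 TPM in the 4 WT libraries (SD, n = 4).

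Fcho2 (ENSMUSG00000041685, chromosome 13, 98723403 to 98815449, minus strand), the broadly expressed partner, varied in the opposite way in WT replicates 2, 3 and 4. It was at 32.1, 33.6, 34.6, 34.6 and 33.6 TPM in KO replicates 1 to 5. WT replicates 2, 3 and 4 had 19.0, 18.3 and 19.3 TPM, and the remaining WT replicates 1, 5, 6 and 7 had 30.7, 32.5, 30.04 and 27.7 TPM. The highest WT library, replicate 5, overlapped with the lowest KO library, replicate 1. The log2 fold change was 0.43 ± 0.152 (SE) with 12 libraries and 0.15 ± 0.048 with 9. Exact stretches of at least 51 bases, the longest of 61, are shared with transcripts of 11 other genes. The sum of Fcho1 and Fcho2 was 45.0 to 52.9 TPM in KO libraries and 37.5 to 49.4 TPM in WT libraries, so the groups overlapped, and across the WT libraries the sum varied less, relative to its lowest value, than Fcho1 or Fcho2 alone.

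Fcho1 made up 30.9% ± 4.97 of that sum in KO (SD, n = 5; range 25.3% to 37.4%). Its share was 61.6%, 62.9% and 57.6% in WT replicates 2, 3 and 4 and 20.5% ± 4.23 (SD, n = 4; range 15.8% to 26.0%) in the other 4 WT libraries. The KO range and that of the 4 WT libraries overlapped by a small margin. The log2 ratio of Fcho1 to Fcho2 differed, KO minus WT, by -0.33 with 12 libraries and by 0.72 with 9.

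Ap1s3 (ENSMUSG00000054702, chromosome 1, 79606876 to 79671972, minus strand) encodes the rarest of the AP-1 sigma subunits. It was at 6.28, 4.92, 5.61, 5.26 and 4.80 TPM in KO replicates 1 to 5. Lower levels were found in WT replicates 2, 3 and 4, with 1.44, 0.94 and 1.25 TPM, and in the remaining WT replicates 1, 5, 6 and 7, with 2.67, 1.91, 3.13 and 3.62 TPM. All KO libraries lay above all WT libraries, and WT replicates 2, 3 and 4 were the lowest of all. The log2 fold change was 1.08 ± 0.210 (SE) with 12 libraries and 0.75 ± 0.131 with 9, and with a pseudocount of 0.1 in place of 1 it was 1.42 with 12 libraries. The ratio of mean TPM, KO over WT, was 2.51 with all 7 WT libraries and 1.90 with the other 4. Its annotated transcripts share exact stretches of at least 51 bases, the read length, with those of 36 other genes, 21 of them measured here. The longest match, of 113 bases, is with the opposite strand of Gm47164. The level of Ap1s3 may be uncertain for this reason, but the effect was not measured.

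Ap1s2 and Ap1s1 differed less. Ap1s2 (ENSMUSG00000031367, chromosome X, 163909017 to 163933666, plus strand) was at 36.6, 37.2, 35.3, 39.4 and 33.8 TPM in KO replicates 1 to 5, against a lowest of 26.1, a median of 31.5 and a highest of 40.7 TPM in WT. The highest value of all was that of WT replicate 6, so the groups overlapped, with a log2 fold change of 0.20 ± 0.091 (SE), or 0.11 ± 0.081 with 9 libraries. Ap1s1 (ENSMUSG00000004849, chromosome 5, 137034993 to 137046135, minus strand) was at 419.9, 460.1, 435, 417 and 450.1 TPM in KO, against a lowest of 408, a median of 431 and a highest of 458 TPM in WT. Its log2 fold change was 0.01 ± 0.044 with 12 libraries and 0.03 ± 0.044 with 9, and WT replicates 2, 3 and 4 lay among the others.

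The sum of the sigma transcripts, most of it Ap1s1, was 462 to 502 TPM in the 5 KO libraries and 452 to 492 TPM in the 7 WT libraries. Ap1s1 made up 90.3% to 92.1% of the sum in KO and 90.3% to 94.1% in WT. Ap1s2 made up 6.92% to 8.54% in KO and 5.63% to 9.0% in WT. The share of Ap1s3 was 0.98% to 1.36% in KO, and 0.198% to 0.798% in WT, without overlap. The log2 ratio of Ap1s3 was higher in KO by 1.07 over Ap1s1 and by 0.88 over Ap1s2 with 12 libraries, and by 0.72 and 0.64 with 9. The ratio of Ap1s2 to Ap1s1 was higher in KO by 0.19 with 12 libraries and by 0.08 with 9, within the SD of the WT libraries.

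Bin1 (ENSMUSG00000024381, chromosome 18, 32377230 to 32435737, plus strand) encodes amphiphysin 2, a BAR protein that forms membrane tubules. It was at 258, 248, 251, 253 and 266 TPM in KO replicates 1 to 5. WT replicates 2, 3 and 4 held 182, 189 and 189 TPM, and WT replicates 1, 5, 6 and 7 held 323, 307, 316 and 323 TPM. As for Fcho1, but in the opposite order, the KO libraries lay between these sets and overlapped with neither. The mean was 255 ± 7.32 TPM in KO (SD, n = 5), and 317 ± 7.45 TPM in the other 4 WT libraries (SD, n = 4). The log2 fold change was 0.01 ± 0.173 (SE) with all 12 libraries, so the direction of the difference rests on WT replicates 2, 3 and 4, and it was -0.31 ± 0.032 with 9. The annotation places a lincRNA gene, A830052D11Rik, on the opposite strand, where it shares 256 of the 4117 exon bases of Bin1. No source used here says how strand was handled, so whether reads of the 2 genes in that stretch were told apart is not known. No level of A830052D11Rik was given in these data.

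Snap23 (ENSMUSG00000027287, chromosome 2, 120567671 to 120601255, plus strand) was at 73.1, 65.1, 69.2, 68.7 and 68.55 TPM in KO replicates 1 to 5. In WT it was at 47.7 TPM in the lowest library, 54.8 at the median and 58.7 in the highest. The groups did not overlap, and WT replicates 2, 3 and 4, at 47.7 to 51.7 TPM, were the lowest. The group levels were 69.0 ± 2.84 TPM in KO (SD, n = 5) and 53.4 ± 3.97 TPM in WT (SD, n = 7), which differed by 0.37 ± 0.058 on the log2 scale (SE, 12 libraries), or 0.29 ± 0.040 with 9 libraries. Its transcripts share stretches of 52 and 53 bases with Tsg101 and Gm10687.

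Counted over all 9 members, every KO library lay above every WT library for 3 (Necap1, Ap1s3 and Snap23), an arrangement that 2.92% of all tested genes showed, while 0.637% showed the reverse. Set against the 4 WT libraries other than replicates 2, 3 and 4, the KO libraries lay above all of them for 4 members, with Fcho1 added, and below all of them for Bin1. Over all tested genes these shares were 7.09% above and 2.08% below. The members were chosen with such differences known, so nothing is read from these counts.

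**Figure D3:**
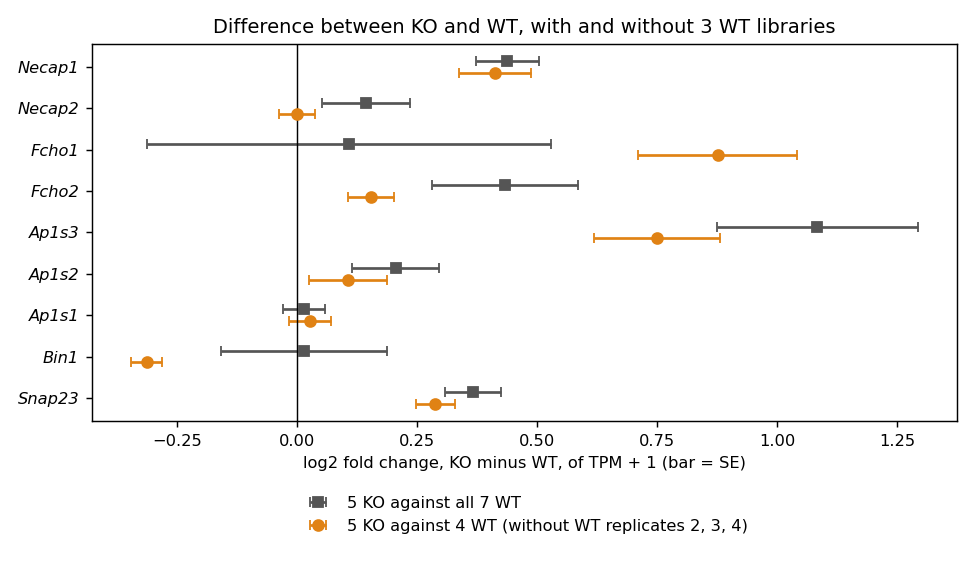
Log2 fold change of TPM + 1, KO minus WT, for each member with its standard error, from all 12 libraries (squares) and from 9 libraries without WT replicates 2, 3 and 4 (circles). Necap1, Snap23 and Ap1s3 were to the right of 0 in both, whereas Fcho1 was at 0.11 and 0.88 and Bin1 at 0.01 and -0.31 with 12 and 9 libraries.

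The member calls depended on single libraries. With 12 libraries, Necap1 was called when KO replicate 2, WT replicate 4 or WT replicate 6 was left out and lost its call without any other, with log2 fold changes of 0.40 to 0.49. Snap23 was called without WT replicate 4 or WT replicate 6 and lost its call without any of the other 10, at 0.34 to 0.39. With 9 libraries, Snap23 (0.27 to 0.31) and Bin1 (-0.33 to -0.30) were called whichever of the 9 was left out. The members and the 9 libraries were chosen with these differences known, so nothing is read from calls that held. Necap1 lost its call without KO replicate 4, WT replicate 1, WT replicate 5 or WT replicate 7, and Ap1s3 without KO replicates 2, 3 or 4 or WT replicate 1. Fcho1 lost its call without KO replicates 2, 3 or 4 or WT replicates 1 or 5, at 0.78 to 0.98.

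The question whether other parts of the same machinery differed was put to 10 lists of 162 genes that hold none of the members, of which 142 were tested. These genes were listed by role and not picked for how they moved, though earlier results of these data were known. Their calls come from the same limma fits, adjusted over all tested genes. The 9-library set was itself chosen with such results known, which limits what its calls can show. With 12 libraries none of the 142 passed the threshold, and 39 had an unadjusted p under 0.05 (1954 of all 11152 tested genes did). In the fit of 9 libraries that unadjusted count was 34 (2111 of all 11152 tested genes). With 9 libraries 5 rose and none fell, against 1.61% of all tested genes that rose, and with the scaling added 1 (Stx3, adjusted p = 0.049) did. Their median log2 fold change was 0.13 with 12 libraries and 0.05 with 9, beside 0.04 and 0.05 over all tested genes.

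The core of the clathrin coat showed no called change. None of the 8 genes of clathrin and AP-2 passed the threshold in either limma fit, and 1 had an unadjusted p under 0.05 in each. Clta, a clathrin light chain, was at 649.5 ± 15.7 TPM in KO (SD, n = 5) and 636 ± 51.5 TPM in WT (SD, n = 7). Its log2 fold change was 0.035 with 12 libraries and -0.048 with 9. Ap2m1, the AP-2 subunit that reads tyrosine-based cargo signals, was at 531 ± 30.0 TPM in KO and 525.6 ± 20.5 TPM in WT (SD, n = 5 and n = 7), a log2 difference of 0.01 ± 0.049 (SE, adjusted p = 0.87 by limma). The other subunits that NECAP and FCHO proteins meet in AP-2 (Ap2a1, Ap2a2, Ap2b1 and Ap2s1, named for this contact and outside the naming rule) had log2 fold changes of -0.12 to 0.03 with 12 libraries and -0.04 to 0.05 with 9. A p that misses the threshold does not show equal levels.

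Among 20 tested accessory proteins of pits, Hip1 rose with 9 libraries. It links clathrin to actin and stood at 97.2 ± 3.20 TPM in KO (SD, n = 5) and 79.2 ± 6.03 TPM in the other 4 WT libraries (SD, n = 4), which gave a KO minus WT difference of 0.30 ± 0.051 in log2 units (SE, adjusted p = 0.023 by limma). WT replicates 2, 3 and 4 held 33.3, 34.8 and 32.4 TPM, and with 12 libraries the value was 0.82 ± 0.274 (limma adjusted p = 0.23). The call of Hip1 held without KO replicate 1, KO replicate 5 or WT replicate 6 and was lost without any other of the 9. The scaffolds Eps15, Eps15l1, Itsn1 and Itsn2, which meet FCHO proteins in young pits and are named for that role, had log2 fold changes of 0.00 to 0.22 with 9 libraries, with limma adjusted p-values of 0.056 for Itsn2 and 0.38 or more for the others.

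Of 18 tested F-BAR genes, the wider family of Fcho1 and Fcho2, Srgap3 rose with 9 libraries, at 2.30 ± 0.315 TPM in KO (SD, n = 5) and 1.47 ± 0.0646 TPM in the other 4 WT libraries (SD, n = 4). KO minus WT it differed by 0.42 ± 0.088 in log2 units (SE, adjusted p = 0.044 by limma), against 0.05 with 12 libraries, where WT replicates 2, 3 and 4 held 3.43, 2.17 and 5.47 TPM. Its call held without KO replicate 5 and was lost without any other of the 9. None of 13 BAR and PX-BAR genes, the family of Bin1, passed the threshold in either limma fit, with 3 (12 libraries) and 4 (9 libraries) at an unadjusted p under 0.05. Sh3glb1, which encodes endophilin B1, was at 108 ± 6.28 TPM in KO and 115 ± 6.82 TPM in WT, and Sh3gl1, an endophilin gene, at 70.8 ± 4.24 TPM in KO and 74.2 ± 6.90 TPM in WT (SD, n = 5 and n = 7). Of 8 genes for pit kinases, uncoating and dynamins, none was called in either limma fit, with 1 and 0 at an unadjusted p under 0.05. The uncoating chaperone gene Hspa8 was at 1706 ± 101 TPM in KO and 1778 ± 129 TPM in WT (SD, n = 5 and n = 7). Dnm2, a dynamin gene, was at 108 ± 2.83 TPM in KO and 102 ± 8.12 TPM in WT (SD, n = 5 and n = 7).

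**Figure D4:**
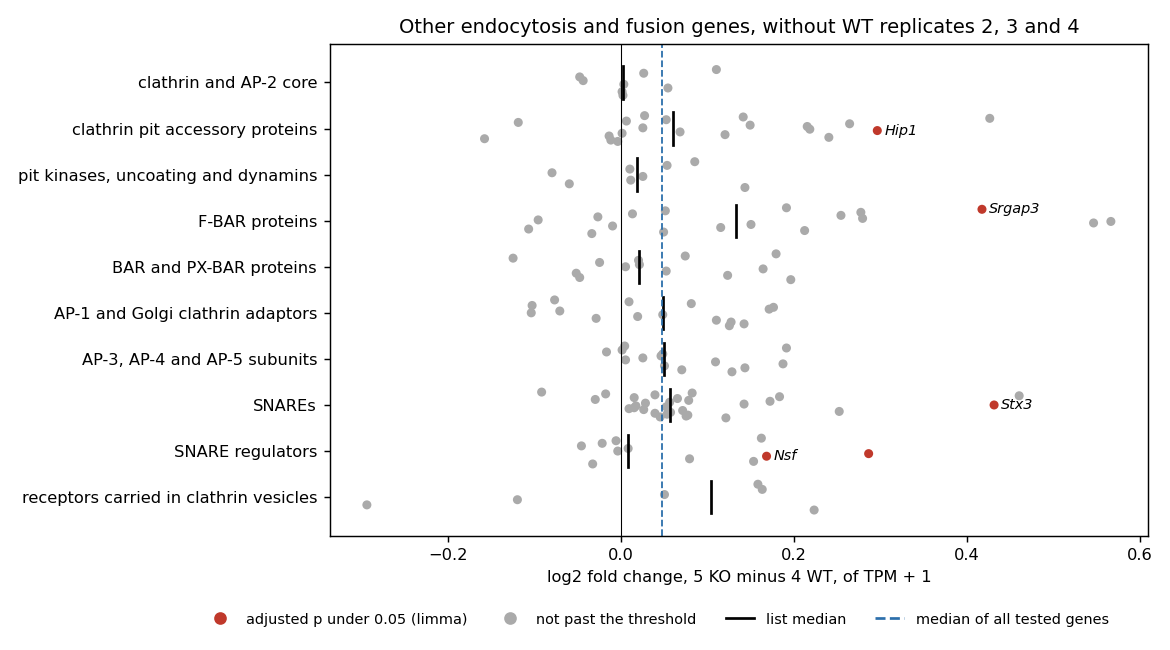
Log2 fold change of TPM + 1, 5 KO minus 4 WT libraries, for the 142 tested genes of 10 lists of endocytosis and fusion genes that hold none of the members; red points passed the limma threshold, black bars are list medians and the dashed line is the median of all tested genes. All 5 red points lay to the right of 0, and Hip1, Srgap3, Stx3 and Nsf are labelled.

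The adaptors around the AP-1 sigma subunits were also below the threshold. Of 15 tested AP-1 and Golgi clathrin adaptor genes none was called by limma, with 9 (12 libraries) and 4 (9 libraries) at an unadjusted p under 0.05. Over all 11152 tested genes these counts were 1954 and 2111. Gga1, a Golgi adaptor, was at 62.3 ± 2.19 TPM in KO and 58.0 ± 3.69 TPM in WT (SD, n = 5 and n = 7). Ap1b1, Ap1g1 and Ap1g2 encode large subunits of AP-1 and are named for that reason. Their log2 fold changes were 0.30, 0.30 and 0.22 with 12 libraries and 0.13, 0.11 and -0.03 with 9, none past the limma threshold. Of 14 tested AP-3, AP-4 and AP-5 genes none was called, with 3 at an unadjusted p under 0.05 in each limma fit. Ap3s1, for a subunit of the endosomal adaptor AP-3, was at 80.6 ± 4.45 TPM in KO and 78.8 ± 11.7 TPM in WT, and Ap3d1, for another AP-3 subunit, at 78.0 ± 2.39 TPM in KO and 69.1 ± 6.93 TPM in WT (SD, n = 5 and n = 7). Receptors carried in clathrin vesicles had no call among 6 (1 and 2 at an unadjusted p under 0.05), with the lipoprotein receptor gene Lrp1 at 503 ± 12.7 TPM in KO and 421 ± 168 TPM in WT and the mannose 6-phosphate receptor gene M6pr at 214 ± 6.50 TPM in KO and 197 ± 16.4 TPM in WT (SD, n = 5 and n = 7). For Lrp1, WT replicates 2, 3 and 4 held 237, 291 and 221 TPM, and the other 4 WT libraries 490 to 616 TPM. The log2 fold change of Lrp1 was 0.37 with 12 libraries and -0.12 with 9.

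Snap23 acts in a complex with a syntaxin and a vesicle SNARE, and of 29 other SNARE genes tested, the syntaxin gene Stx3 rose with 9 libraries. It was at 27.3 ± 2.02 TPM in KO (SD, n = 5) and 20.1 ± 2.35 TPM in the other 4 WT libraries (SD, n = 4), which gave a KO minus WT difference of 0.43 ± 0.083 in log2 units (SE, adjusted p = 0.031 by limma). With 12 libraries the value was 0.42 ± 0.073 (limma adjusted p = 0.062), and all KO libraries, at 24.6 to 29.4 TPM, lay above all WT libraries, at 16.8 to 21.8 TPM. The call of Stx3 with 9 libraries held without KO replicate 1, KO replicate 2 or WT replicate 6 and was lost without any other of the 9. Of 11 SNARE regulators 2 rose with 9 libraries, among them Nsf, the ATPase that takes SNARE complexes apart. Nsf was at 56.4 ± 0.920 TPM in KO (SD, n = 5) and 50.07 ± 1.96 TPM in the other 4 WT libraries (SD, n = 4), which gave a KO minus WT difference of 0.17 ± 0.035 in log2 units (SE, adjusted p = 0.042 by limma), and its call held without KO replicate 1 or WT replicate 6 and was lost without any other of the 9. Other known partners of SNAP23, named for that role, had no call in either limma fit, and with 9 libraries Stx4a had a log2 difference of 0.14 and Stx11 of 0.25, and Vamp3, Vamp8 and Stxbp3 lay between 0.01 and 0.04.

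The genes whose pattern over the 9 libraries was most like that of the members were also listed, as Pearson correlations of log2(TPM + 1) across libraries of both genotypes. All tested genes averaging 5 TPM or more were ranked, and with 9 libraries high values arise for many genes. For Necap1 they were Sdc4 and Rnf6 (both 0.968) and Rraga (0.966). For Snap23 they were Eml2 (0.979), Sdccag8 (0.972) and Vav3 (0.971). For Fcho1 they were Rac2 (0.977), Eif2d (0.971) and L1cam (0.967), and for Ap1s3 they were Rinl (0.978), Nipsnap1 (0.954) and Gm5537 (0.953). The members were themselves chosen for a difference between the genotypes, which these correlations share.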

How the data were processed

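RNA of the 12 macrophage samples was prepared with the NEBNext Ultra RNA kit and read as pairs of 51 bases, at 30000000 read pairs per sample on average, per the labels' protocols. Per the submitters' processing notes, bcl2fastq and Salmon 1.2.0 were used with build mm10. Neither annotation release, nor the step from transcripts to genes, nor strand handling is stated, that is, these were not given in the sources used here. TPM values for 23438 Ensembl gene IDs were deposited by the authors, and 23423 matched a GENCODE M21 symbol. The columns summed to 940127 to 947987 TPM. TPM keeps no depth, so counting error could not be given, and a rise of abundant transcripts lowers all others.

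Columns were assigned by submission name and groups by title. No libraries held identical values. The test was limma-trend (limma 3.58.1, R 4.3.3) on log2(TPM + 1), with genotype as the only term, over the 11152 genes that reached 1 TPM in 5 or more libraries, with Benjamini-Hochberg adjustment over all of them and a threshold of 0.05; it was tested on simulated data. The filter was kept when libraries were left out. Members, gene lists, the 9-library set and tests were chosen with earlier results of these data known. List genes were named by rule: up to 2 called genes per list and direction in each fit, or otherwise the 2 with the highest mean TPM, as values. Of the genes so named, 2 are counted in their lists but not reported here. Exact shared sequence was searched with blastn in GENCODE M21 transcripts. Alternatives were other scaling, filters, pseudocount, sample weights, a replicate block and leaving out libraries. Replicate numbers 1 to 5 occur in both groups without a label that ties them.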

Additional observations from a re-analysis of the deposited data

How the results depend on the processing

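The counts of genes called by limma varied with the setting. Of all tested genes 14 were called with 12 libraries, 260 without WT replicates 2, 3 and 4, 4 with median-ratio scaling, 759 with sample quality weights, and 221 with both the 9 libraries and that scaling. For the genes of the 10 lists the count was 0 with 12 libraries, 5 with 9, 1 with a minimum mean of 5 TPM, 13 with weights and 1 with 9 libraries and scaling. For the members it was 2 with 12 libraries, 5 with 9, 0 with scaling, 5 with weights and 5 with 9 libraries and scaling. Leaving out single libraries gave 2 to 36 genes, 0 to 1 list genes and 0 to 3 members from the 12, and 51 to 462, 0 to 9 and 2 to 5 from the 9. Without a filter and with a pseudocount of 0.1 the counts stayed within 1.5 times of those reported. With 12 libraries, calls higher in KO were 12 of 14, but 2 of 4 with scaling, and with 9 libraries 180 of 260, but 85 of 221 with scaling.

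The replicate block, on the 10 libraries numbered 1 to 5, called 0 genes, 0 list genes and 0 members (3706 genes at an unadjusted p under 0.05), against 13, 0 and 2 in the same libraries unblocked, a fit added after seeing the data. Same-numbered libraries correlated in their deviations from the group means at 0.273, 0.173, 0.114, -0.199 and -0.233. Libraries of different number were not compared in this way, so whether a shared number marks a shared batch was not tested.

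Among the members, their ratios and the called list genes named here, directions changed as follows. Bin1 was at 0.01, but at -0.31 with 9 libraries, -0.03 with scaling, -0.30 with weights and -0.36 with 9 libraries and scaling, and ranged from -0.07 to 0.07 and from -0.33 to -0.30 when single libraries were left out of the 12 and the 9. Fcho1 was at -0.15 with and without the block, and between -0.07 and 0.29 without single libraries of the 12 (0.78 to 0.98 for the 9). Ap1s1 was at -0.03 with scaling, -0.02 with 9 libraries and scaling and -0.01 with and without the block, and between 0 and 0.06 without single libraries (0 to 0.03 for the 12). Necap2 was at 0 with 9 libraries and -0.05 with scaling added, and between -0.02 and 0.17 without single libraries. Srgap3 was at -0.11 with and without the block and between -0.02 and 0.46 without single libraries (-0.02 to 0.22 for the 12). The ratio of Fcho1 to Fcho2 was at 0.72 with 9 libraries, against -0.33 with 12 and -0.57 to -0.07 without single libraries. The cause of these changes was not tested. The other paralogue differences kept their direction under every alternative run. Bin1 over Bin2 was not run, since Bin2 was not analysed here. Depth is unknown, so the precision of low values such as Ap1s3 could not be set.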

Other observations

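Several other genes of the same machinery were lower in WT replicates 2, 3 and 4 than in any other library, given here as values without a test, and chosen after their values were seen. The share of all tested genes with this arrangement was not counted, so it is not shown to be particular to the machinery. Among the AP-2 subunits, pit scaffolds and SNAP23 partners named above, many did not show it. These were Itsn1, Ap2a1, Ap2a2, Ap2b1, Ap2m1, Ap2s1, Stx3, Stx11, Vamp3 and Vamp8. Itsn2, a pit scaffold, was at 66.2 to 71.5 TPM in KO, 32.4 to 33.9 TPM in WT replicates 2, 3 and 4, and 55.9 to 64.6 TPM in the other 4 WT libraries. Eps15 was at 70.5 to 80.2 TPM in KO, 39.0 to 40.6 TPM in WT replicates 2, 3 and 4, and 63.9 to 85.9 TPM in the other 4. The AP-1 subunit gene Ap1g1 was at 36.3 to 41.3 TPM in KO, 24.9 to 28.0 TPM in WT replicates 2, 3 and 4, and 35.9 to 38.7 TPM in the other 4. The AP-2 subunit gene Ap2a1 differed in the other direction, at 69.1 to 75.1 TPM in KO, 82.6 to 97.3 TPM in WT replicates 2, 3 and 4, and 70.2 to 74.3 TPM in the other 4 WT libraries. Among 62 sets of values of 1 gene or ratio in 1 genotype, none had a library whose gap to its nearest neighbour passed Dixon's 95% critical value. Such a gap cannot flag libraries that stand apart together, as WT replicates 2, 3 and 4 did for Fcho1 and Bin1.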
